A study of Mus musculus with 48 samples.

Results

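Maternal separation (MS) was compared with control rearing (C) in the amygdala of mice that carry 1 inactivated copy of Tph2. The comparison covered 8 Tph2+/- MS and 8 Tph2+/- C mice of the 48 mice in the series. It was described over the 5677 genes whose mean was at least 10 counts over these 16 libraries, out of 48440 genes in the table, after Lars2, Gm42418 and the 5 entries that name no gene had been dropped. The rule used counts and no difference between groups. The lowest mean inside it was 10 and the highest outside it 9.94 counts, with 124 genes up to 0.5 counts above the limit and 147 up to 0.5 counts below it.

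All mice were males of 4 months from a line with constitutive inactivation of Tph2 on a C57BL/6N background, so that the controls carried the same allele. MS pups had been taken from their dams for 3 h per day on postnatal days 2 to 15, while C mice were reared as usual in the animal facility. Animals were housed singly and went through behavioral tests before the amygdala of both hemispheres was collected, and powdered tissue from each mouse gave 1 stranded total RNA library. Labels name separate animals but no litters, so that littermates may stand in the same group. The other 32 mice were Tph2+/+ and Tph2-/- mice reared in the same ways, and they entered the model as 4 further groups.

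Tph2 encodes the enzyme for the rate-limiting step of serotonin (5-HT) synthesis in neurons of the raphe nuclei, whose axons reach the amygdala. The amygdala, a group of nuclei of the forebrain, links sensory input with fear and anxiety responses. Separation of pups from the dam is a widely used model of early-life stress, and the comparison asks which transcripts differ in adulthood in animals with a partial loss of the enzyme. Serotonergic cell bodies lie outside the amygdala, and Tph2 had 0 counts in each of the 16 libraries. A count of 0 allows up to 3 counts, which make 3.62 to 7.76 CPM, the count scaled by library total and TMM factor, so that Tph2 gives no check of the genotype labels here. This floor covers counting error only.

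Counts on genes ranged from 615229 to 6128142 per library (median 718707), and 1 count made 1.21 to 2.59 CPM. Among uniquely placed pairs, 97.2 to 97.6% fell outside the features in 15 libraries, and 77.8% in Tph2+/- C replicate 2. That library held 4492836 counts on Gm42418 and 1185526 on Lars2, against 132 to 711 and 23901 to 48995 in the other 15 libraries, and 449780 counts remained on all other genes. Tph2+/- MS replicate 8 had the lowest median Spearman correlation with the other libraries over the tested genes, 0.889, against 0.916 to 0.937 for the rest. It also had the highest count of pairs with more than 1 placement (5970528, median of all 16 libraries 4040032). The first principal component of log2(CPM + 1) took 18.1% of the variance and set apart MS replicate 8 (score 32.2) and C replicate 4 (21.3), followed by C replicates 7 (11.4) and 6 (11.3). The second took 13.5% and set apart C replicate 2 (30.0) at one end, while C replicates 7 (-14.5) and 8 (-14.1) lay together at the other, with C replicate 6 (-7.42) next. Animal numbers in the labels were lower than those of all MS mice in C replicates 1 to 6 and higher in C replicates 7 and 8, with none in between, so that among mice other than these 2 controls rearing and animal number cannot be told apart.

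**Figure D1:**
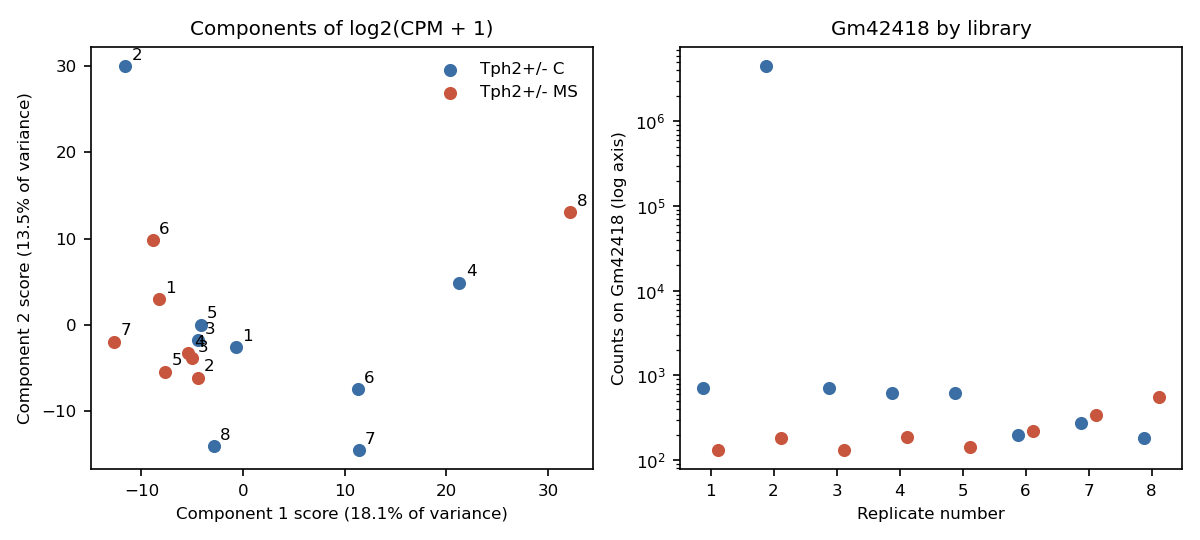
The left panel plots each of the 16 Tph2+/- libraries by its scores on the first 2 principal components of log2(CPM + 1), labelled with the replicate number (C in blue, MS in red), and the right panel plots counts on Gm42418 by replicate number on a log axis. MS replicate 8 lies at 32.2 on the first component, C replicate 2 lies at 30.0 on the second and holds 4492836 counts on Gm42418.

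Much of what was counted lay opposite to other genes. Of the 5677 genes, 3617 (63.7%) have exons that overlap exons of a gene on the other strand, against 17.5% of all genes in the table. The most counted member was Ccdc107 (mean 31837 counts), which has 124 bases opposite to Rmrp, the RNA of the mitochondrial RNA processing complex. Gm37376, opposite to 453 bases of the nuclear RNA gene Malat1, had a mean of 12256 counts, while Malat1 itself had 134. Nefm, which encodes a neurofilament subunit, lies for 1108 bases opposite to Nefl and had 2570 counts against 28.7 on Nefl. The strand setting of the counting is not given in the sources used here, and without it reads of a gene and of its opposite partner cannot be told apart. For this reason opposite genes are named beside genes below, and group counts are given for genes of a list and for genes opposite to them.

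Few genes were called for rearing in Tph2+/- mice. With the study's thresholds, a nominal p under 0.01 and an lg2FC beyond 0.2 in either direction, 40 of 5677 genes (0.705%) were called by edgeR's quasi-likelihood test, with 17 (0.299%) higher and 23 (0.405%) lower after MS. No gene (0.0%) passed a Benjamini-Hochberg adjusted p of 0.05, and the smallest adjusted p in edgeR was 0.721. At a nominal p below 0.05 there were 235 genes, or 4.14% of those tested. Where no gene differs, shares of 0.01 and 0.05 of genes are expected below nominal p of 0.01 and 0.05. The shares found were not above these, so that the called genes are read as a description. DESeq2 without a prior gave 0 genes with an adjusted p below 0.05 and 189 with a nominal p below 0.05. No gene (0.0%) had all 8 MS values above all 8 C values, and 1 gene (0.0176%), Atl1, had all 8 below. Median lg2FC over all genes was 0.00551.

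The count of calls moved with single libraries. Without C replicate 2, 31 genes were called higher and 35 lower, and 28 of the 40 genes were among them. Without MS replicate 8, 22 were higher and 81 lower, with 31 of the 40 among them, and without both libraries 145 genes were called, 39 of them higher, with 25 of the 40 among them. In the last fit the smallest adjusted p of edgeR was 0.207. Of the 40 genes, 9 kept a nominal p below 0.01 whichever of the 16 libraries was left out, namely Gm2623, 2210406H18Rik, ENSMUSG00000085435, Usp40, Gm10135, Atl1, Ubxn6, Hspa12b and Fahd1. Gm2623, 2210406H18Rik, ENSMUSG00000085435 and Ubxn6 kept it in each alternative fit that was run. Without C replicates 7 and 8, 10 genes were called higher and 20 lower, and 21 of the 40 were among them. Of the 40 genes, 4 had a mean below 10 counts in C mice only (ENSMUSG00000085435, Gm22558, Nop9 and Sox5os3, all called higher) and 4 in MS mice only (Atl1, Gm21738, Hspd1 and Ptms, all called lower). These 8 passed the limit of 10 counts through the group where they were higher, so that their calls are read as a description.

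**Figure D2:**
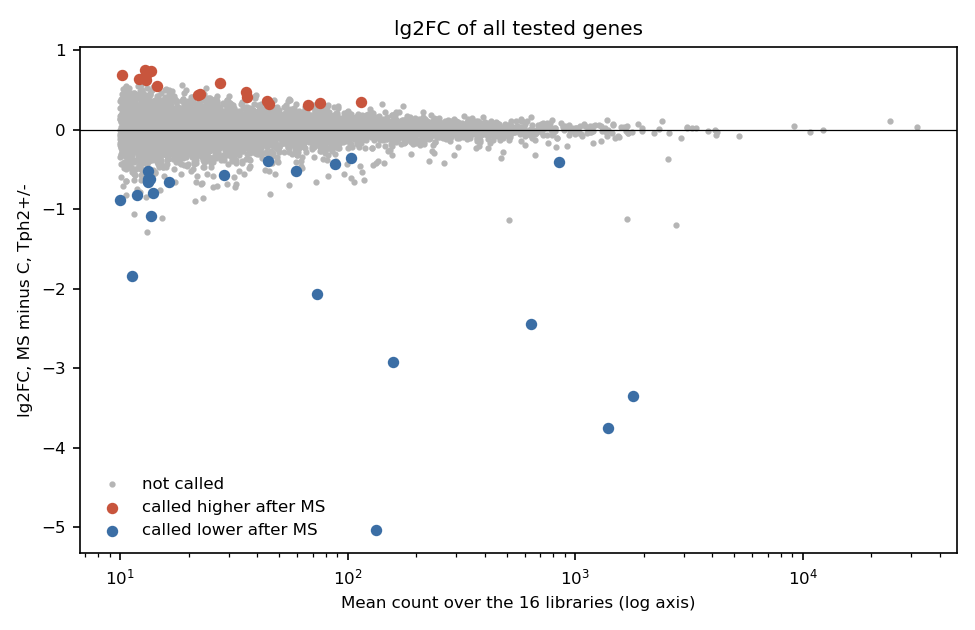
The lg2FC of MS minus C in Tph2+/- mice (vertical axis) is plotted against the mean count over 16 libraries (horizontal log axis) for the 5677 genes, with the 17 genes called higher in red and the 23 called lower in blue. Genes called higher lie between 0.31 and 0.75, and several lower genes lie below -2, among them ENSMUSG00000089855 at -5.04 and Mir6236 at -3.75.

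The precision of the fit followed the counts. Genes with 10 to 20 counts had a median SE of 0.227 on the lg2FC scale, those with 20 to 50 counts 0.169, those with 50 to 200 counts 0.116 and those above 200 counts 0.0841. For 5547 genes (97.7%) the 95% interval of the lg2FC lay within -1 and 1, and for 3394 (59.8%) within -0.5 and 0.5. Among the 652 genes above 200 counts the narrower range held the interval of 629 (96.5%), while among the 1809 genes with 10 to 20 counts it held that of 359 (19.8%). The spread within the groups was alike, with a median SD of log2(CPM + 1) of 0.302 in C and 0.319 in MS.

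Genes higher after MS were low to moderate in count, from 10.2 to 115 on average, and 9 of the 17 are protein-coding. The smallest p belonged to Gm2623 (ENSMUSG00000106654), a processed pseudogene on chromosome 5 of GRCm38 (32838129 to 32838414, plus strand). Its level was 23.0 to 46.6 CPM in C mice, with a median of 32.1, and 32.9 to 66.8 CPM in MS mice, with a median of 50.7. All 8 MS values lay above the C median, and 6 lay above every C value. The lg2FC was 0.59 ± 0.15 (SE), with a 95% interval from 0.28 to 0.89, a nominal p of 0.00029 in edgeR and 0.00404 in a two-sided exact permutation test of mean log2(CPM + 1). A processed pseudogene is a copy of a spliced transcript, so that its counts depend on how reads shared with the parent gene were placed, which was not tested.

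2210406H18Rik (ENSMUSG00000109036), a transcript that still awaits experimental evidence (TEC) on the minus strand of chromosome 7 (121062852 to 121063959), had 21.7 to 61.6 CPM in C mice (median 43.3) and 50.3 to 70.6 CPM in MS mice (median 63.2). The groups overlapped, with 5 MS values above every C value and 6 C values below every MS value. Its lg2FC was 0.48 ± 0.13 (SE), with a nominal p of 0.000544 in edgeR and of 0.00218 by exact permutation. ENSMUSG00000085435, which GENCODE M21 does not hold and for which no position is given, had 9.02 to 18.1 CPM in C mice (median 15.3) and 9.77 to 43.2 CPM in MS mice (median 24), with median counts of 8.5 and 15.5, so that it passed the limit of 10 counts through the MS mice. MS replicate 7 was its highest library, and 6 MS values lay above every C value. The lg2FC was 0.75 ± 0.22, with p values of 0.00125 in edgeR and 0.0253 by exact permutation.

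Among genes with a known product, Usp40 encodes a ubiquitin-specific protease, an enzyme that removes ubiquitin from proteins. Usp40 (chromosome 1, 87945119 to 88008551, minus strand) shares 62 bases of exon with Dgkd on the plus strand, which encodes a diacylglycerol kinase. Usp40 ranged from 89.1 to 124 CPM in C mice (median 97.3) and from 102.6 to 150 CPM in MS mice (median 128). All MS values lay above the C median and 5 above every C value. The lg2FC of Usp40 was 0.34 ± 0.10 (nominal p = 0.0016 in edgeR, 0.00451 by exact permutation), and that of Dgkd was 0.26 ± 0.13 with an interval from -0.01 to 0.53. Without C replicates 7 and 8 together the p of Usp40 was 0.019.

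Gm10135 (chromosome 5, 72965808 to 72974702, minus strand) is annotated as protein-coding and lies with 246 bases opposite to Slain2, which encodes a microtubule-binding protein and had a mean of 1.5 counts. Gm10135 had 75.0 to 93.8 CPM in C mice (median 91.0) and 88.3 to 128.7 CPM in MS mice (median 112), and 7 of 8 MS values exceeded every C value, the exception being MS replicate 8. The lg2FC was 0.31 ± 0.10, with an exact permutation p of 0.00109. Iqcg, which encodes a protein of motile cilia and sperm tails (chromosome 16, 33012683 to 33056218, minus strand), shares 2965 bases with Lrch3 on the other strand. Iqcg went from 43.3 to 68.8 CPM (median 57.9) in C to 61.2 to 86.3 CPM (median 76.3) in MS, an lg2FC of 0.36 ± 0.12, whereas Lrch3 had an lg2FC of 0.04 ± 0.18.

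Zrsr1, an imprinted gene for a protein related to the splicing factor U2AF, stands within Commd1 on the opposite strand (chromosome 11, 22972005 to 22976496, plus strand), with 412 bases of shared exon. Zrsr1 had 7.76 to 25.4 CPM in C mice (median 17.6) and 22.8 to 29.9 CPM in MS mice (median 24.5). All MS values were above the C median, and 6 C values were below every MS value. The lg2FC of Zrsr1 was 0.55 ± 0.18 (nominal p = 0.00526 in edgeR, 0.00264 by exact permutation), and 0.47 with p = 0.0159 without C replicate 2, its lowest control. Commd1 itself, at 516 to 666 CPM in C and 465 to 622 CPM in MS, had an lg2FC of -0.11 ± 0.06.

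Glra4, on the minus strand of the X chromosome (136757674 to 136780141), encodes a subunit of the glycine receptor, a chloride channel opened by the inhibitory transmitter glycine. Its range was 7.99 to 25.9 CPM in C mice (median 14.7) and 12.3 to 42.1 CPM in MS mice (median 24.3), and 4 MS values lay above every C value. The lg2FC was 0.73 ± 0.24, with a nominal p of 0.00313 in edgeR and 0.0241 by exact permutation. The remaining genes of the 12 with the smallest p were non-coding. Gm44012, an antisense gene on chromosome 6 (84921123 to 84924996, plus strand), had medians of 16 CPM in C and 23.4 CPM in MS mice. 4933400F21Rik, a processed transcript on chromosome 1 (89650529 to 89683908, minus strand), had 110 to 197.3 CPM in C and 153.1 to 248 CPM in MS mice. Its nominal p in edgeR was 0.059 without C replicates 7 and 8 (lg2FC 0.23) and 0.0204 without MS replicate 8 (lg2FC 0.28). The snRNA gene Gm22558 on chromosome 16 (17006107 to 17006201, minus strand) had 7 of 8 MS values above every C value, with medians of 13.0 and 18.9 CPM, or 7.5 and 13.5 counts. Sox5os3, an antisense gene at the locus of the transcription factor gene Sox5 on chromosome 6 (144672868 to 144693834, plus strand), had medians of 12.9 and 22.6 CPM. The lg2FC of these 4 genes were 0.62, 0.35, 0.69 and 0.68 in the same order.

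The 5 further genes called higher all had lg2FC from 0.32 to 0.64. They were Fmnl3, which encodes a formin that nucleates actin filaments (lg2FC 0.44), Nlgn1, which encodes the postsynaptic adhesion protein neuroligin 1 (0.32), Nop9 (0.64) and Rpl23a (0.43), both for proteins of ribosome biogenesis or structure, and the antisense gene Gm26854 (0.40). Nlgn1 had 46.1 to 77.3 CPM in C mice (median 57.9) and 53.6 to 93.8 CPM in MS mice (median 73.3), and the groups overlapped, with 3 MS values above every C value. It shares 1229 bases with A830092H15Rik, whose lg2FC was 0.00 ± 0.08 at 418 to 636 CPM in C and 456 to 610 CPM in MS. Nop9 lies opposite to 1136 bases of Cideb (lg2FC 0.38 ± 0.20, with an interval from -0.01 to 0.77) and Rpl23a opposite to 506 bases of Tlcd1 (0.01 ± 0.07). Without MS replicate 8 the p of Nlgn1, Fmnl3, Nop9 and Rpl23a was 0.0117, 0.0194, 0.0295 and 0.0186.

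**Figure D3:**
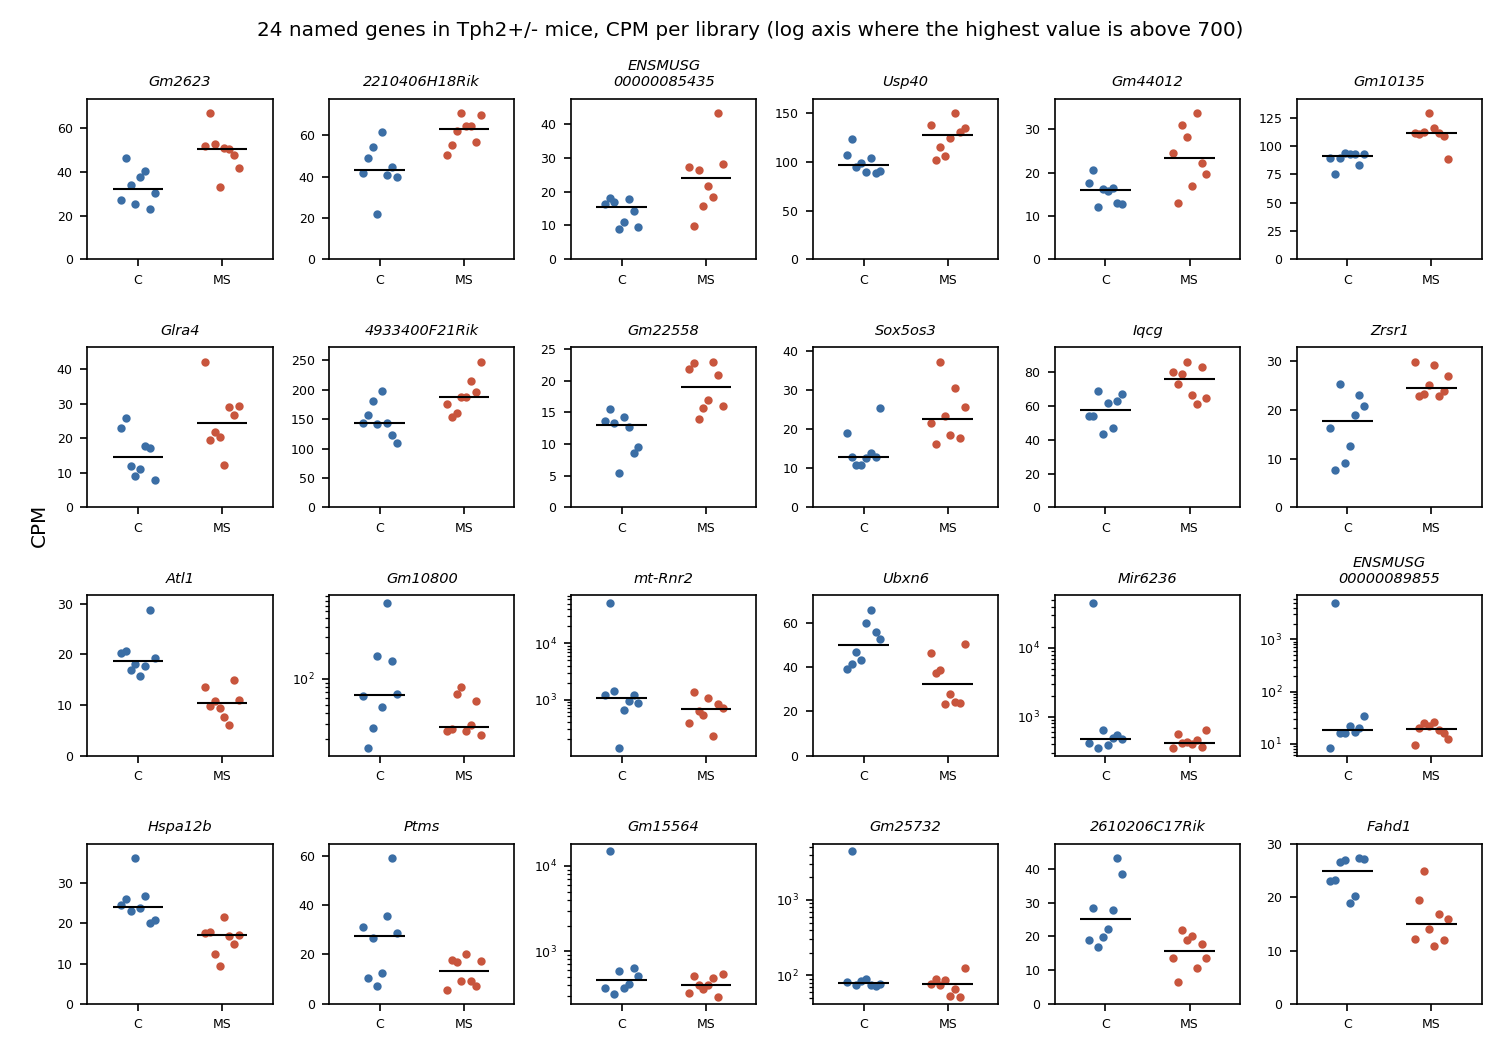
Each panel plots the CPM of a named gene in the 8 C (blue) and 8 MS (red) libraries of Tph2+/- mice in replicate order, with the median as a bar and a log axis for genes with high values. Atl1 has every MS value below every C value, while mt-Rnr2, Mir6236, ENSMUSG00000089855, Gm15564 and Gm25732 each have C replicate 2 far above the other 15 libraries.

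Among genes lower after MS, Atl1 had the smallest p of all genes tested. Atl1 encodes atlastin 1, a GTPase that fuses membranes of the endoplasmic reticulum (chromosome 12, 69892614 to 69966417, plus strand). It ranged from 15.8 to 28.8 CPM in C mice (median 18.6) and from 6.12 to 14.9 CPM in MS mice (median 10.3), so that the groups did not overlap. The lg2FC was -0.89 ± 0.22 (SE), with an interval from -1.33 to -0.46, a nominal p of 0.000135 in edgeR and an exact permutation p of 0.000155, the smallest that 8 against 8 mice allow. The exons of Atl1 overlap those of Sav1, which encodes a scaffold of the Hippo pathway, by 1336 bases and those of the kinase gene Map4k5 by 548 bases. Sav1 had 39.5 to 68.8 CPM in C and 22.1 to 63.2 CPM in MS (lg2FC -0.23 ± 0.19), and Map4k5 had a mean of 7.12 counts and was not tested. Atl1 had the lowest mean of the genes called, 10 counts, which places it at the edge of the rule. Its median was 13 counts in C and 6.5 counts in MS mice, so that it passed the limit only through the controls, where it was higher, and in the fit restricted to genes with a mean of 10 counts over all 48 mice it was not among the genes tested.

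Ubxn6 encodes a cofactor of the ATPase p97, which extracts ubiquitin-tagged proteins, and its transcript models share 4648 bases with Chaf1a, the gene of a chromatin assembly factor subunit on the other strand (chromosome 17, 56067045 to 56075028, minus strand). Ubxn6 had 39.3 to 65.9 CPM in C mice (median 49.9) and 23.5 to 50.3 CPM in MS mice (median 32.6). MS replicate 8 was its highest MS library, and 6 MS values lay below every C value. The lg2FC was -0.57 ± 0.16 (nominal p = 0.000762 in edgeR, 0.00715 by exact permutation) and -0.68 without MS replicate 8, while Chaf1a had an lg2FC of 0.04 ± 0.17.

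Hspa12b, which encodes a distant member of the HSP70 family and is known from endothelial cells, was lower in 7 of 8 MS mice than in any control (chromosome 2, 131127280 to 131146321, plus strand). It had 20.1 to 36.1 CPM in C mice (median 24) and 9.41 to 21.6 CPM in MS mice (median 17), an lg2FC of -0.63 ± 0.18, with an exact permutation p of 0.000466. The markers of endothelial cells and blood had 1 tested gene, Alas2, with an lg2FC of 0.01 ± 0.13, and 5 of the 9 markers (Cldn5 and the globin genes Hba-a1, Hba-a2, Hbb-bs and Hbb-bt) had 0 counts in all 16 libraries. Alas2, which is a blood marker and lies opposite to Apex2, had a median of 509 CPM in C mice against one of 515 CPM for all 9 markers, so that their summed level (319 to 634 CPM in C and 368 to 616 CPM in MS mice) is almost wholly that of Alas2. The part of such cells in the result for Hspa12b was not tested, and in bulk tissue fewer cells of a type and less RNA per cell cannot be told apart.

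Fahd1, which encodes a mitochondrial enzyme that decarboxylates oxaloacetate (chromosome 17, 24848892 to 24850364, minus strand), had 18.9 to 27.3 CPM in C mice (median 24.9) and 10.8 to 24.9 CPM in MS mice (median 15.0). All MS values lay below the C median and 6 below every C value, with an lg2FC of -0.62 ± 0.20 and an exact permutation p of 0.00202. 2610206C17Rik, an antisense gene on chromosome 7 (84689640 to 84779053, plus strand) with 69 bases opposite to Zfand6, had 16.9 to 43.1 CPM in C (median 25.0) and 6.52 to 21.8 CPM in MS (median 15.7). C replicate 7 was its highest library, and its lg2FC was -0.80 ± 0.25, with a nominal p of 0.0511 in edgeR without C replicates 7 and 8. Ptms, which encodes the acidic nuclear protein parathymosin (chromosome 6, 124913681 to 124920103, minus strand), had an lg2FC of -1.08 ± 0.33 but an exact permutation p of 0.0639. Its C values spread from 7.22 to 58.9 CPM (median 27.7), with the highest in C replicate 7, and its MS values from 5.44 to 20 CPM (median 13.3).

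A further group of lower genes owed its lg2FC to C replicate 2. mt-Rnr2, the 16S ribosomal RNA gene of the mitochondrial genome (M, 1094 to 2675, plus strand), had 52584 CPM in that library, against a C median of 1056 CPM and 224 to 1376 CPM in MS mice (median 673). The same library had 45589 CPM of Mir6236 (C median 476, MS 347 to 638), 14987 CPM of Gm15564 (C median 462, MS 293 to 546), 5040 CPM of ENSMUSG00000089855 (C median 18.3, MS 9.51 to 26.2) and 4473 CPM of Gm25732 (C median 79.7, MS 52.1 to 124). In each of them the values of the other 7 controls overlapped with those of the MS mice. Their lg2FC with all libraries were -3.35, -3.75, -2.44, -5.04 and -2.92. Without C replicate 2 they were -0.36, -0.06, -0.15, -0.02 and -0.01, with nominal p in edgeR between 0.616 and 0.991, and exact permutation gave p from 0.23 to 0.521 with all libraries.

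Mir6236 (chromosome 9, 110281287 to 110281409, plus strand) and Gm25732 (chromosome 4, 139338206 to 139338265, plus strand) are annotated as miRNA genes, and Gm15564 as antisense (chromosome 16, 35966752 to 35983230, minus strand). The counts refer to these whole genes and not to mature miRNAs. The mature sequence of Mir6236, the miRNA gene with the highest count in C replicate 2 among the named genes, is shown from RefSeq at chr9:110281353-110281371 of GRCm38.p6, plus strand, with its seed (bases 2 to 8) in capitals.
mmu-miR-6236: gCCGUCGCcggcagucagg

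Gm10800, annotated as protein-coding on chromosome 2 (98666547 to 98667301, minus strand), rested on another control. It had 15.5 to 759 CPM in C mice (median 65.4), with 759 CPM in C replicate 6, and 22.1 to 80.0 CPM in MS mice (median 27.6). The lg2FC was -2.06 ± 0.56 with a nominal p of 0.000519 in edgeR, and its exact permutation p was 0.10. Leaving out C replicate 6 gave a nominal p of 0.0587 in edgeR, and the other controls had 15.5 to 184 CPM. Gm21738 (chromosome 14, 19415857 to 19418930, minus strand) had its highest value in the same library, 124 CPM against a C median of 8.06 CPM and an MS range of 1.63 to 12.2 CPM, with an lg2FC of -1.84 and an exact permutation p of 0.291. The highest nominal p of Gm21738 in edgeR with a single library left out was 0.426.

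The other 10 genes called lower had lg2FC from -0.36 to -0.83. Hspd1, which encodes the mitochondrial chaperonin HSP60, had an lg2FC of -0.83 ± 0.29, and its neighbor on the other strand, Hspe1, which encodes the partner HSP10 and shares 112 bases, had -0.14 ± 0.17. Hspd1 ranged from 5.17 to 39.3 CPM in C and from 7.65 to 17.7 CPM in MS mice, with the MS range within the C range and an exact permutation p of 0.158. Crat, for the mitochondrial enzyme carnitine acetyltransferase, had an lg2FC of -0.40 ± 0.14 and lies opposite to 411 bases of Gm16323 (0.14 ± 0.12) and 59 bases of Dolpp1 (8.38 counts). Fzd8, for a Wnt receptor, had -0.52 ± 0.19. Gm37811, with a mean of 850 counts, was the most counted called gene that did not rest on C replicate 2. It lies for 1547 bases opposite to C1ql3, which encodes a secreted protein of the synapse. Gm37811 had 784 to 2304 CPM in C mice (median 1382) and 880 to 1342 CPM in MS mice (median 1097), with an lg2FC of -0.40 ± 0.15 and an exact permutation p of 0.152. C1ql3 itself had 18.1 to 41.5 CPM in C (median 26.8) and 8.15 to 31.1 CPM in MS (median 19.7), with an lg2FC of -0.58 ± 0.25 and a nominal p of 0.0244 in edgeR.

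AB041806, Gm10676 and Dnaaf2 shared a library pattern. AB041806, opposite to 919 bases of Fam43b, had an lg2FC of -0.52, Gm10676, opposite to 1053 bases of Mypop, -0.43, and Dnaaf2, which encodes an assembly factor of ciliary dynein and lies opposite to 1107 bases of 9330151L19Rik, -0.36. In each of them MS replicate 8 was the highest MS library and C replicate 4 or 7 the highest control, and their Pearson correlations with the first principal component over the 16 libraries were 0.868, 0.849 and 0.73. Since all 16 points also enter the component, these values are a description. Without MS replicate 8 their lg2FC were -0.73, -0.59 and -0.46, with nominal p of 0.000298, 0.000299 and 0.00128 in edgeR. Without C replicates 7 and 8 they were -0.51, -0.38 and -0.30, with nominal p of 0.0164, 0.0302 and 0.0418 in edgeR. Their highest nominal p in edgeR with a single library left out were 0.0342, 0.0306 and 0.0401. The last 3 genes were Gm26810, Gm16070 and Gm10461, opposite to 202 bases of Capns1, 548 bases of Crispld1 and 635 bases of Yes1, with lg2FC of -0.66, -0.66 and -0.65. Without C replicates 7 and 8 the lg2FC of Gm10461 was -0.41, with a nominal p of 0.0943 in edgeR.

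Of the 40 called genes, 19 have an opposite gene (47.5%, against 63.7% of tested genes), in 21 pairs. In 11 pairs the opposite gene was tested. None of the opposite genes was called, and 1 of them, C1ql3, had a nominal p below 0.05. With 0.705% of all genes called, so few opposite genes say nothing by their count of calls. In 8 of the 11 pairs both genes had an lg2FC of the same sign, which was not tested. By annotation, 20 called genes were protein-coding (50%, against 54.7% of tested genes), 8 antisense (20% against 21%) and 4 TEC (10% against 4.93%).

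The change after MS was set beside that in the other genotypes, with a test of the difference itself in the same model. The same thresholds called 162 genes (2.85%) for MS against C in Tph2+/+ mice and 41 (0.722%) in Tph2-/- mice. For the difference in MS effect from Tph2+/+ mice they called 184 genes (3.24%), and the smallest adjusted p of edgeR was 0.0724. Against Tph2-/- mice they called 44 genes (0.775%), with a smallest adjusted p of 0.31. No gene passed an adjusted p of 0.05 for a difference between genotypes, with 471 and 291 genes at a nominal p below 0.05.

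Among the 24 named genes, 11 had a nominal p below 0.01 for the difference from Tph2+/+ mice and 7 for that from Tph2-/- mice. As these genes were chosen by their change in Tph2+/- mice, which is part of both differences, the counts are read as a description. Atl1 had an lg2FC of -0.89 ± 0.22 in Tph2+/-, 0.51 ± 0.22 in Tph2+/+ and -0.47 ± 0.21 in Tph2-/- mice. Its difference from Tph2+/+ mice was -1.41 ± 0.31 (adjusted p = 0.0724 in edgeR, from a nominal p of 3.15e-05), and that from Tph2-/- mice was -0.43 with a nominal p of 0.207. 2610206C17Rik moved from -0.80 in Tph2+/- to 0.77 ± 0.25 in Tph2+/+ and 0.09 ± 0.24 in Tph2-/- mice, a difference from Tph2+/+ mice of -1.57 ± 0.36 with an adjusted p of 0.0724 in edgeR. Dnaaf2, outside the 24, had -0.36, 0.51 and 0.05 in the 3 genotypes and the same adjusted p in edgeR for the difference from Tph2+/+ mice.

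Gm2623 had an lg2FC of 0.59 in Tph2+/- mice, -0.15 ± 0.15 in Tph2+/+ and -0.14 ± 0.15 in Tph2-/- mice, with nominal p of 0.00118 and 0.00127 for its differences. Gm44012 had 0.62, -0.40 ± 0.19 and -0.13 ± 0.18, and its difference from Tph2+/+ mice had an adjusted p of 0.0833 in edgeR. ENSMUSG00000085435 had 0.75 in Tph2+/- and -0.63 ± 0.22 in Tph2-/- mice, and the difference of 1.38 had the smallest p among all genes in that contrast (5.45e-05, adjusted p = 0.31 in edgeR). Zrsr1 was likewise at 0.55 in Tph2+/- and -0.47 ± 0.18 in Tph2-/- mice, with a nominal p of 0.000199 for the difference. The gene mt-Rnr2 had lg2FC of -3.35, -2.81 and -1.38 in Tph2+/-, Tph2+/+ and Tph2-/- mice, and its differences had nominal p of 0.649 and 0.109, but without C replicate 2 its lg2FC in Tph2+/- mice was -0.36. Of the 12 genes higher after MS in Tph2+/- mice, 2 had an lg2FC of the same sign in Tph2+/+ and 4 in Tph2-/- mice, and of the 12 lower genes, 8 and 9, which include the 5 genes that rest on C replicate 2. Over all 5677 genes, the sign was the same for 2520 in Tph2+/+ and 2753 in Tph2-/- mice.

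**Figure D4:**
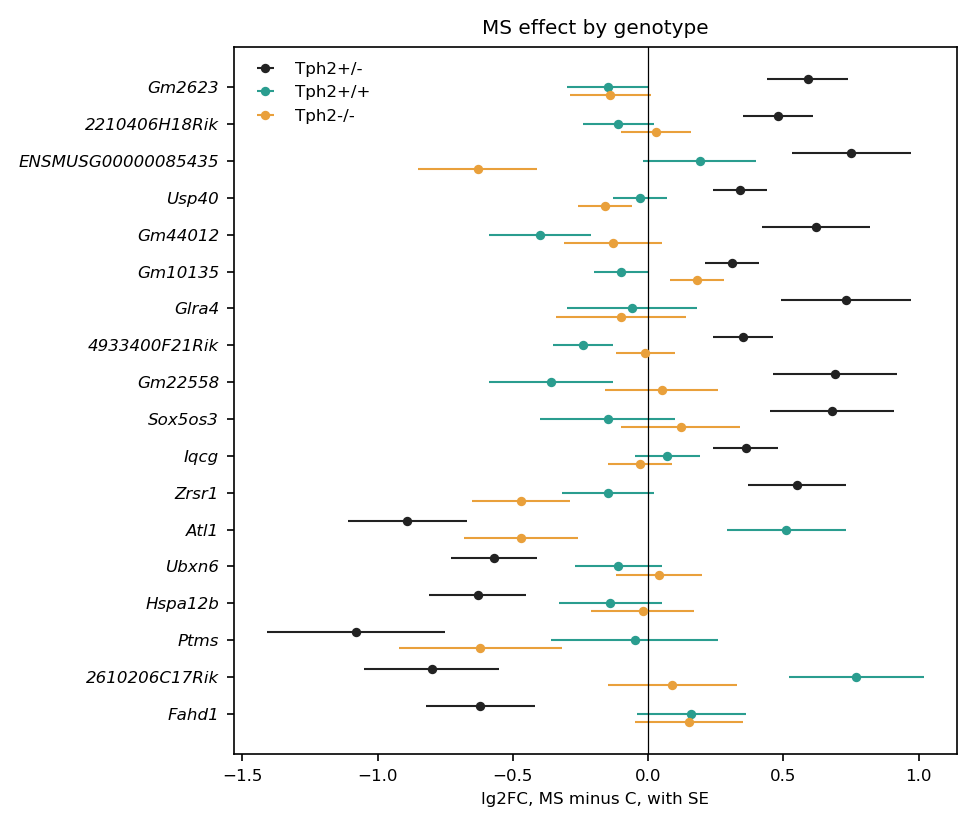
Points give the lg2FC of MS minus C with its SE (bars) for the named genes whose SE in Tph2+/- mice was below 0.5, in Tph2+/- (black), Tph2+/+ (green) and Tph2-/- mice (orange). Atl1 lies at -0.89, 0.51 and -0.47 and 2610206C17Rik at -0.80, 0.77 and 0.09 in that order.

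In 9 gene groups of interest to stress and 5-HT, 77 genes of a group or opposite to one were tested and 1 was called, mt-Rnr2, which rested on C replicate 2. With 0.705% of all genes called, 1 of 77 lies near the background, and with so few genes tested per group the counts of called genes say little about any of them. Of the 37 genes of the mitochondrial genome, which encode subunits of the respiratory chain and the RNAs that translate them, 15 were tested, 0 were called higher and 1 lower, with a median lg2FC of -0.07. Their summed level was 8805 to 63525 CPM in C mice (median 11358) and 8402 to 12185 CPM in MS mice (median 10093), and C replicate 2 was the highest. mt-Co1, a subunit of cytochrome c oxidase, had an lg2FC of 0.02 ± 0.12, and mt-Cytb one of -0.07 ± 0.09. mt-Rnr1 had -0.66 ± 0.31 with a nominal p of 0.0366 in edgeR, and mt-Nd6 had -0.42 ± 0.20 with one of 0.0457. Together with mt-Rnr2 they were the 3 of the 15 tested genes with a nominal p below 0.05.

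Of 22 5-HT genes, 3 were tested and 1 further tested gene lay opposite to a member. Slc18a2, which encodes the transporter that loads monoamines into vesicles and lies opposite to Gm29261, had 194 to 304 CPM in C (median 226) and 112 to 269 CPM in MS mice (median 243), with an lg2FC of -0.04 ± 0.17 and an interval from -0.38 to 0.31. The receptor genes Htr1b and Htr2b had lg2FC of -0.15 ± 0.14 and 0.06 ± 0.09, and D430036J16Rik, opposite to 852 bases of Htr1b, had -0.22 ± 0.15. Of 19 stress hormone genes, 2 were tested. Nr3c2, which encodes the mineralocorticoid receptor, had an lg2FC of 0.01 ± 0.22, Hsp90ab1, for a chaperone of steroid receptors, -0.25 ± 0.25, and Gm10649, opposite to 247 bases of Nr3c2, 0.06 ± 0.14. The 18 immediate early genes, whose transcription rises with neuronal activity, gave 1 tested gene, Junb (0.10 ± 0.08), which lies opposite to Prdx2, and 1 opposite gene, Junos (-0.27 ± 0.17).

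Of 24 neuropeptide precursor genes, 3 were tested, Scg2, Vgf and Chgb, with lg2FC of -0.15, -0.13 and -0.22, and 2 tested genes lay opposite to members, A830012C17Rik opposite to Penk (0.06 ± 0.27) and Gm45346 opposite to Bdnf (0.04 ± 0.19). Cck, which encodes cholecystokinin and which the study examined further, fell below the rule, with a mean of 2.25 counts over the 16 libraries. It had 1 to 6 counts in C mice (median 2.5) and 0 to 5 counts in MS mice (median 1). In CPM, 7 of 8 MS values lay below every C value and the exact permutation p of mean log2(CPM + 1) was 0.00777, but both medians lie below 3 counts, and no fold is given. The study selected Cck in part by a contrast of these same libraries that contains this comparison, so that the p is read as a description.

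The GABA genes, for synthesis, transport and receptors of the main inhibitory transmitter, had 5 tested members of 18, all with an lg2FC below 0 and a median of -0.20. This direction was not particular to them, as the 3 tested neuropeptide precursor genes and the 4 tested neuronal markers were all below 0 too. The median over all genes was 0.00551. Gabra2, a receptor subunit, had -0.64 ± 0.30 with a nominal p of 0.0372 in edgeR, and Gabrb1, opposite to Gabra4, had -0.20 ± 0.21. The 3 genes opposite to members, A230004M16Rik, Gm9962 and Gm14205, had 0.02 ± 0.11, 0.12 ± 0.12 and -0.23 ± 0.16. Of 22 glutamate receptor genes, 7 were tested, with a median lg2FC of -0.07 and a range from -0.23 to 0.08, and 7 tested genes opposite to members had a median of -0.01. Grin1os, opposite to 1307 bases of the NMDA receptor gene Grin1, had 1997 to 2745 CPM in C and 1881 to 2924 CPM in MS mice, and an lg2FC of -0.08 ± 0.08 with an interval from -0.24 to 0.07. Grin2d, opposite to Gm45441, had -0.07 ± 0.13.

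Of 17 DNA methylation genes, Tdg (0.09 ± 0.14, opposite to Glt8d2) and Zbtb38 (0.26) were tested, with 4 tested genes opposite to members at lg2FC from -0.07 to 0.16. Gm44206, opposite to 264 bases of Mbd4, had -0.03 ± 0.16. Of 18 imprinted and nuclear long non-coding genes, 7 were tested, with a median lg2FC of -0.06, and 13 tested genes lay opposite to members, with a median of 0.06 and a range from -0.06 to 0.39. Ube3a, imprinted in neurons, lies opposite to Gm44560 for 2025 bases and also opposite to Snhg14 and 9330162G02Rik. Its counts cannot be told apart from reads of these genes. Ube3a had 4291 to 9369 CPM in C (median 5315) and 2306 to 7014 CPM in MS mice (median 6433), with an lg2FC of -0.01 ± 0.25. Gm37376, opposite to Malat1, had 16120 to 22592 CPM in C and 4053 to 27639 CPM in MS mice and an lg2FC of 0.00 ± 0.25, so that its MS values spread on both sides of the C range.

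In the 10 lists of markers of cell types and of brain regions, 30 genes of a list or opposite to one were tested and 0 were called, and with 0.705% of all genes called, so few genes say nothing on the markers by their count. Tested neuronal markers were Syt1 (-0.43 ± 0.29), Map2 (-0.08 ± 0.33), Nefl (-0.20 ± 0.24) and Eno2 (-0.26 ± 0.24), 4 of 12, with a summed level of all 12 of 86.6 to 252 CPM in C and 94.9 to 235 CPM in MS mice. Nefm and Gm10558, opposite to Nefl and Map2, had -0.05 ± 0.09 and -0.01 ± 0.08. For oligodendrocytes, 3 of 14 markers were tested, with Cnp, opposite to Dnajc7, at 0.02 ± 0.07, and 2 opposite genes, with Galnt5 at -0.16 ± 0.28. Summed levels of the 14 were 576 to 800 CPM in C and 641 to 799 CPM in MS mice, and Mag and Opalin had 0 counts in all libraries. For astrocytes, 2 of 9 markers were tested, Slc1a2 (-0.31 ± 0.32) and S100b (0.26 ± 0.21), and Gm13872, opposite to 189 bases of Slc1a2, had 0.11 ± 0.07. Summed levels of the 9 were 57.7 to 171 CPM in C and 69.3 to 137 CPM in MS mice. For microglia, P2ry12 had an lg2FC of -0.02 ± 0.18 and Csf1r, opposite to Hmgxb3, one of 0.02 ± 0.10, Med12l, opposite to P2ry12, had -0.19 ± 0.18, and C1qa, C1qb and Tmem119 had 0 counts in all libraries, with summed levels of 357 to 423 and 347 to 446 CPM.

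The region markers had low counts, and with the strand setting not given these cannot be read as levels of expression. Of 9 amygdala markers, Lmo3 was tested (-0.24 ± 0.23), and the 9 together had 36.2 to 74.8 CPM in C and 39.3 to 70 CPM in MS mice, while Gpr39, opposite to 1202 bases of the member Lypd1, had 5213 to 7367 and 4357 to 7061 CPM and an lg2FC of -0.03 ± 0.12. None of 8 markers of cortex and hippocampus reached 10 counts, with summed levels of 25.9 to 45.6 and 26.0 to 43.5 CPM. For the striatum, 1700003D09Rik, opposite to the marker Ppp1r1b, had an lg2FC of 0.09 ± 0.16, with summed levels of the 8 markers of 17.4 to 33.9 and 20.4 to 39.3 CPM. Markers of hypothalamus and thalamus gave Agrp (0.02 ± 0.25) and Ctcf, which lies opposite to it (0.08 ± 0.18), with summed levels of 31.2 to 46.9 and 31.9 to 54.4 CPM. Apex2, opposite to the blood marker Alas2, had an lg2FC of 0.28 ± 0.26. For choroid plexus, Kcnj13 had -0.19 ± 0.15, summed levels of the 9 markers were 117 to 191 and 68.7 to 168 CPM, and Gigyf2, opposite to 623 bases of Kcnj13, varied from 69.9 to 472 CPM in C and from 27.7 to 552 CPM in MS mice. Its lg2FC of -0.05 ± 0.57 has an interval from -1.2 to 1.1, the spread within the groups being far larger than the difference.

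**Figure D5:**
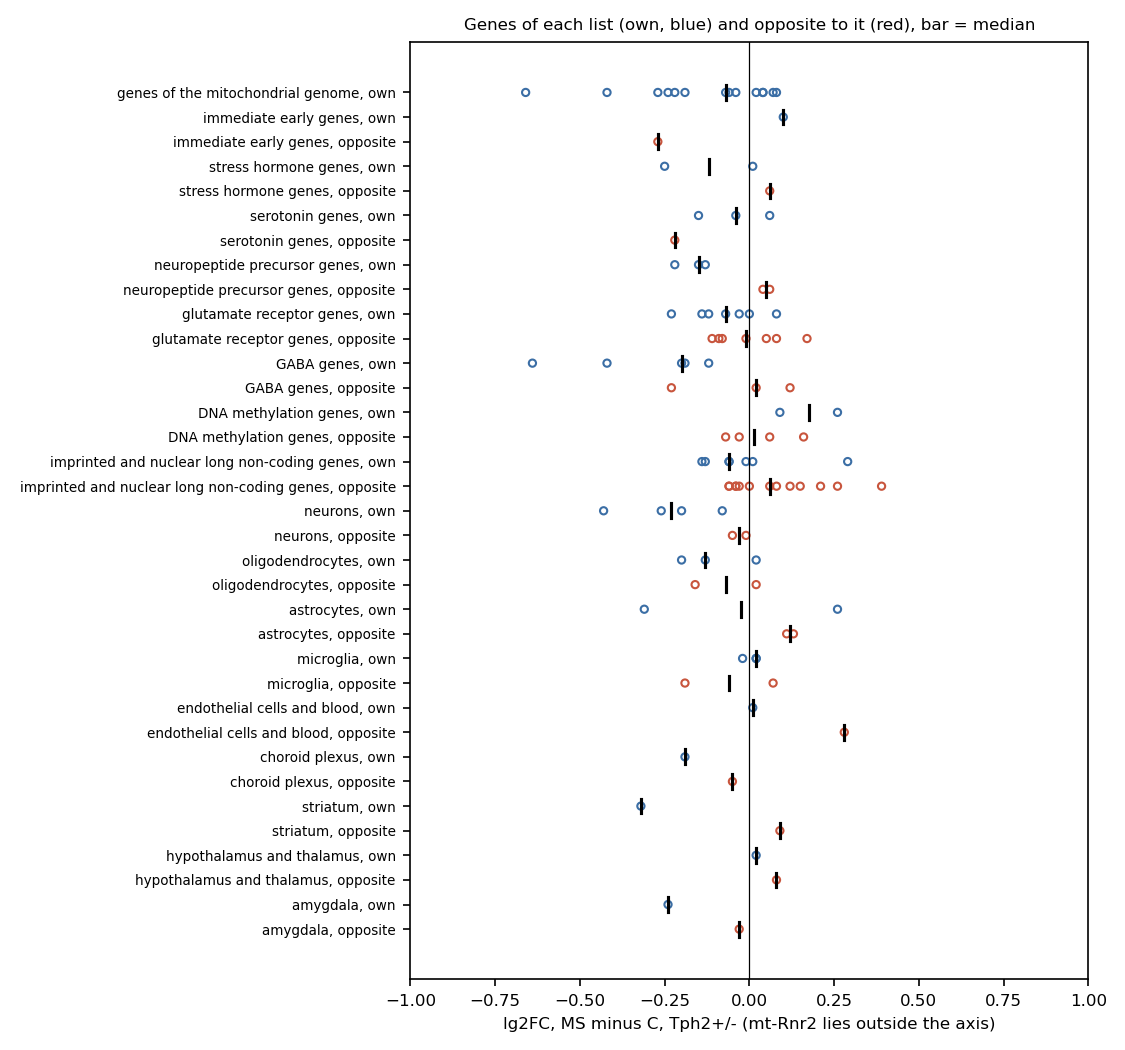
Each row plots the lg2FC of MS minus C in Tph2+/- mice for the tested genes of a list (own, blue) or for tested genes with exons opposite to its members (opposite, red), and black bars mark medians. Values lie on both sides of 0 and no gene shown was called, while mt-Rnr2 (-3.35) lies outside the axis.

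Some members varied between animals more than between groups. With a mean of at least 50 counts, the largest spreads within groups were found in genes high in C replicate 2, with ENSMUSG00000089855 first (pooled SD of log2(CPM + 1) of 2.08). Among genes that were not highest in that library, Gigyf2 (1.42), Gm10800 (1.33), Malat1 (1.12) and Gm11973, opposite to Purb (1.01), had the largest spread. Malat1 had medians of 223 CPM in C and 201 CPM in MS mice, with the highest and the lowest value of all 16 both in C mice. Gm11973, Tsen34 (opposite to Mboat7) and Cnbd2 (opposite to Scand1) were highest in C replicate 7, with 436, 196 and 299 CPM, and had lg2FC of -0.66, -0.69 and -0.59 with nominal p of 0.102, 0.0607 and 0.108 in edgeR. Along the first principal component, Prr3 (opposite to Gnl1), 1700001G11Rik (opposite to Trim35) and Gm20512 (opposite to Tomm40) rose with the score of MS replicate 8, where they had 228, 271 and 228 CPM against medians of 140, 150 and 92.1 CPM in the 14 libraries other than it and C replicate 2. Dnttip2, Cstf3 and Orc3 went the other way, with 39.3, 121 and 329 CPM in MS replicate 8 against 74.2, 200 and 521 CPM.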

How the data were processed

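The authors sequenced stranded total RNA libraries as pairs of 125 bases and deposited raw counts of read pairs per Ensembl gene, without normalization. The submitters' processing notes name STAR, HTSeq and DESeq2 without versions and the build GRCm38.p5. Annotation and strand setting are not given in the sources used here. Every column was matched to a mouse by its label. Special entries took 96.8% of the entries of the 16 Tph2+/- libraries and were left out.

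Genes were placed with GENCODE M21 on GRCm38, which holds 48058 of 48440 genes. Opposite means overlap of exons on different strands. The model, made in edgeR 4.0.16 (R 4.3.3) after TMM scaling, held a coefficient for each of 6 groups. Each contrast had a quasi-likelihood F test, adjusted after Benjamini-Hochberg over 5677 genes, and the SE is the absolute lg2FC divided by the square root of F. CPM are scaled with TMM factors. The method was tested on simulated data. Exact permutation tests were two-sided, over 12870 splits. These steps used Python 3.11.15, NumPy 2.4.6, SciPy 1.17.1, pandas 2.3.3 and matplotlib 3.10.9.

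The genes, the 9 lists and the 10 marker lists were chosen with earlier results of these data known. Named genes are the 12 with the smallest p in each direction at an absolute lg2FC above 0.2, the called genes or, with none, the most counted gene of each list and of the genes opposite to it, their opposite genes, and Cck. A few list genes that this rule names are not reported here. The further called genes and those with a large spread were named after their values were seen. Alternatives were DESeq2's size factors, DESeq2 1.42.0 with and without a prior, 3 other filters on counts, the 16 mice alone, a replicate block, Lars2 and Gm42418 kept, the share of pairs with more than 1 placement as a covariate, robust edgeR, and fits without C replicates 7 and 8 or each library. Leaving out C replicate 2 and MS replicate 8 together was added after seeing the data, as were the alternatives of the differences between genotypes.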

Additional observations from a re-analysis of the deposited data

Results flagged for a closer look

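In groups of 8 mice, 8 values of the 24 named genes stood apart by Dixon's ratio on log2(CPM + 1), in 48 groups tested, of which chance flags about 1 in 20. In C mice these were 52584 CPM of mt-Rnr2, 45589 CPM of Mir6236, 14987 CPM of Gm15564, 5040 CPM of ENSMUSG00000089855 and 4473 CPM of Gm25732, all in replicate 2. The lg2FC of these 5 genes rest on that library. The other 3 values were 28.8 CPM of Atl1 in C replicate 7 and 21.7 CPM of 2210406H18Rik in C replicate 4, and 88.3 CPM of Gm10135 in MS replicate 8. Without C replicate 7, C replicate 4 and MS replicate 8 in turn, these 3 genes kept a nominal p below 0.01 in edgeR.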

How the results depend on the processing

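The 40 called genes kept their direction in each alternative in which they were tested, except ENSMUSG00000089855, whose lg2FC was 0.06 without C replicate 2 and MS replicate 8 together. With each library left out in turn, calls ranged from 14 to 31 genes higher, with 31 without C replicate 2 and 29 without MS replicate 2. Genes lower ranged from 13 to 81, with 35 without C replicate 2, 50 without C replicate 3, 13 without C replicate 7 and 81 without MS replicate 8. Without both C replicate 2 and MS replicate 8 there were 145 called genes, against 40 with all libraries, and 39 of them were higher. DESeq2 gave 11 genes higher without a prior and 10 with it, and leaving out C replicates 7 and 8 gave 10. The share of pairs with more than 1 placement as a covariate gave 47 lower. Without a filter on low counts, 32233 genes were tested, 114 were higher, 205 lower and 29 had an adjusted p below 0.05 in edgeR, 26 of them among the 5677 genes. In that fit the total degrees of freedom were 1353790 against 51.7 with the filter, so that all genes shared nearly the same spread. No other alternative gave an adjusted p below 0.05. The replicate block gave 17 higher and 16 lower, and 29 of the 40 genes were called in both. The replicate numbers do not pair the samples, with correlations of deviations between same-numbered libraries from -0.256 to 0.0227. Of the 24 named genes, 11 had p below 0.01 for the difference from Tph2+/+ mice and 7 with DESeq2 without a prior. For the difference from Tph2-/- mice it was 7, with 4 in DESeq2 without a prior, 4 without C replicates 7 and 8 together, and 11 without a filter. With each library left out, these counts ranged from 8 to 11 and from 4 to 9, with 4 without C replicate 7, C replicate 8 or MS replicate 4. The differences between genotypes could not be fitted with the 16 mice alone and were not run in DESeq2 with a prior. The cause of these changes was not tested. Exact permutation left 18 of the 40 genes at p below 0.01. Depth limits what can be shown, as genes with 10 to 20 counts had a median SE of 0.227 and the 95% interval lay within -0.5 and 0.5 for 19.8% of them.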
